A study of Mus musculus with 32 samples.

Results

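The genes described here are 7 enzymes of amino acid breakdown in mouse liver: tyrosine aminotransferase (Tat), tryptophan 2,3-dioxygenase (Tdo2), aminoadipate-semialdehyde synthase (Aass), quinoid dihydropteridine reductase (Qdpr), 4-hydroxyphenylpyruvate dioxygenase (Hpd), homogentisate 1,2-dioxygenase (Hgd) and fumarylacetoacetate hydrolase (Fah). Their names were set with earlier results of these data known, so the counts among them below are a description. The probe sets taken were all those whose only gene symbol in the platform annotation was one of these 7. That gave 8 of the 12488 probe sets on the array and 7 of its 8252 genes with an unshared symbol, because Tdo2 has a pair of probe sets. The genes are not all of aromatic amino acid breakdown: Aass acts on lysine, which is not aromatic, and Qdpr regenerates a cofactor of phenylalanine hydroxylation. The other 5 belong to the breakdown of tyrosine or tryptophan.

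The livers came from 32 male B6C3F1 mice, a hybrid strain, in 8 groups of 4, and their RNA was hybridised to MG-U74Av2 arrays of Affymetrix. Mice on long-term calorie restriction (LTCR) ate 52.2 kcal per week from 5 months of age. Mice restricted for 8 weeks (CR8) were moved at 20 months to the restricted diet, first at 77 kcal weekly during 2 weeks, later at 52.2 kcal weekly during 6 weeks. Another 5 groups received the control diet with a compound for 8 weeks from 20 months: metformin (MET), glipizide (GLIP), glipizide and metformin together (GM), an isoflavone extract of soy (SOY) or rosiglitazone (ROS), at doses not given in the sources used here. Controls (CON) ate 93 kcal per week of a defined diet. All mice were housed singly from 5 months and were killed at 22 months after 48 hours without food, so every level below is that of a fasted liver. The restricted diet was enriched so that protein eaten per gram of body weight was about that of the controls. The labels speak of animals per group but do not tie arrays to animals further, so the p-values measure the spread between these arrays.

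The liver is the main site where surplus phenylalanine, tyrosine and tryptophan are broken down. Phenylalanine is hydroxylated to tyrosine with tetrahydrobiopterin, which Qdpr restores to its active form. Tat takes off the amino group of tyrosine, and Hpd, Hgd and Fah then open the ring and split it into fumarate and acetoacetate. Tdo2 opens the ring of tryptophan in the first step of the kynurenine route, and Aass joins and then splits lysine and 2-oxoglutarate in the first steps of lysine breakdown. Tat and Tdo2 are classic examples of liver enzymes induced by glucocorticoids, and Tat also by glucagon through cyclic AMP.

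Values are the deposited intensities, in which the trimmed mean of each array was between 500.4 and 500.5, so they were already scaled. Levels of different probe sets were not set against each other. Differences are on the scale of log2(intensity + 27), where the added value is the 20th percentile of all intensities, with standard errors from limma. They were tested over 7357 probe sets in a single fit of the 8 groups. All 8 probe sets of the 7 genes passed the filter on dim values. The 8 hepatocyte markers measured were bright on their brightest probe sets, with Alb between 31356.7 and 47323.7 on every array. A second Apoa2 probe set, also part of the marker sums below, was dim, at 30.7 to 184.3. In 5 arrays, CON 3, CR8 1, CR8 2, ROS 4 and SOY 3, the summed intensity of skeletal muscle markers was 2.94 to 8.83 times that of the median array, and calls of the 7 genes and of named genes of their routes against CON, between LTCR and CR8 and between GM and MET are given also without these arrays where that changed them. Calls between other pairs of groups were not refitted without them.

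**Figure D1:**
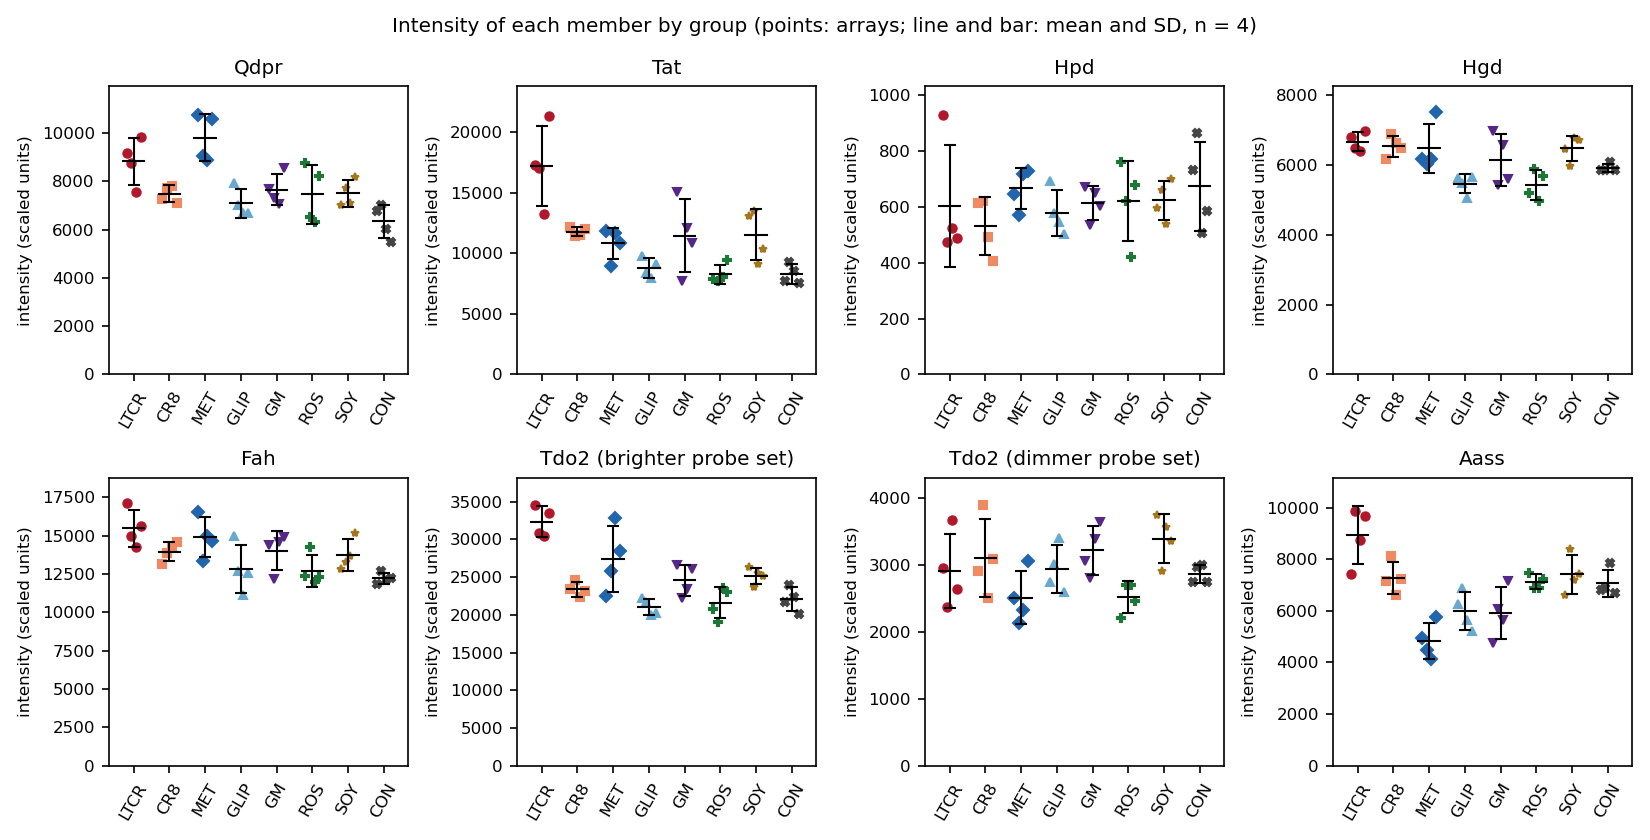
Intensity (scaled units, linear axes from 0) of the 8 probe sets in each group; points are arrays, lines and bars are means and SDs of 4 arrays. Tat is highest in the LTCR group, at 13224.4 to 21346.8, against 7533 to 9301 in CON, Aass is lowest in the MET group, at 4143.8 to 5773.4, and the Hpd groups overlap.

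Of the 7 genes 6 differed somewhere among the 8 groups by the moderated F test at an adjusted threshold of 0.05, against 27% of all probe sets tested. The exception was Hpd, with an adjusted p of 0.771.

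Long-term restriction gave the most calls among the 7 genes. Relative to CON, 5 of the 7 rose and 0 fell in LTCR livers, whereas 7.53% of all probe sets tested rose, 11.8% fell and 19.3% changed in either direction. The 5 were Tat, Tdo2, Qdpr, Fah and Aass. The median change of the 7 was 0.34, beside 0.0044 over all probe sets tested. Without the arrays that carry muscle transcripts the 5 genes also passed. With quantile normalization between arrays 3 passed, and Fah (adjusted p = 0.0934) and Aass (adjusted p = 0.155) did not, with changes of 0.17 and 0.23 in place of 0.34 and 0.33.

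Some markers of several cell types were called in this comparison too, in which 7.53% of all probe sets tested were higher and 11.8% lower. The summed intensity of 9 hepatocyte marker probe sets was 164962.7 to 181857.2 in LTCR and 144925.8 to 162214.9 in CON, without overlap, and 4 of the 8 marker genes were higher and 2 lower by the test. The sum over 19 macrophage marker probe sets was 3637.1 to 5235.6 in LTCR and 5827 to 7407 in CON, and 2 of the 11 markers tested were lower and 0 higher. Of 7 endothelial markers tested 1, Tie1, was higher (0.65 ± 0.14, adjusted p = 0.00104) and 0 lower, with a median change of 0.30, and their sum over 10 probe sets was 2613.2 to 3210.4 in LTCR and 1998.5 to 2706.5 in CON. Of 8 stellate cell and fibroblast markers Col1a2 was higher and Lum lower, and of 3 erythroid markers Alas2 was lower. The part of these markers in the changes of the 7 genes was not tested, and in bulk tissue fewer cells of a type cannot be told apart from less RNA per cell.

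Qdpr, the dihydropteridine reductase, had 2 groups that stood above CON by the test. Its intensities in MET livers were 10748.2, 9043.1, 8893.4 and 10594.4, against 6784.7, 7032, 6033 and 5507.3 in CON livers. Every MET array lay above every CON array, and the change was 0.63 ± 0.10 (SE), or 1.55-fold, with an adjusted p of 0.00132. In LTCR livers the 4 arrays read 9188.4, 8746.8, 7546.9 and 9828.6, again all above CON, with a change of 0.48 ± 0.10 and an adjusted p of 0.00131. MET and LTCR differed by less than the test could call (LTCR minus MET -0.15 ± 0.10, adjusted p = 0.364).

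The remaining Qdpr groups averaged from 7092.98 (GLIP) to 7650.08 (GM), beside 6339.25 ± 699 in CON (SD, n = 4). In the order of means MET stood above LTCR and CON was the lowest, and none of the 7 steps between neighbours passed the test. MET was above CR8, GLIP, ROS and SOY as well as CON, at adjusted p of 0.0318, 0.0119, 0.0245 and 0.0305.

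Tat, which starts tyrosine breakdown, had the largest change of the 7. Its intensities were 17290.7, 17042.1, 13224.4 and 21346.8 in LTCR livers, against 7669.7, 9301, 8496.8 and 7533 in CON livers. The lowest LTCR array was above the highest CON array. The change was 1.04 ± 0.15, or 2.06-fold, with an adjusted p of 1.51e-05. LTCR was above each of the other 7 groups by the test, and these were 7 of the 28 pairs of groups called for Tat.

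The next 4 groups for Tat lay close together, with means of 11760.77 (CR8), 11533.83 (SOY), 11436.88 (GM) and 10808.2 (MET), against 8250.12 in CON. GM and SOY were the most spread of them, with SDs of 3023 and 2121, and the CR8 arrays the least, with an SD of 373.9. All 4 CR8 arrays, at 12126.7, 11382.4, 11500.2 and 12033.8, exceeded all CON arrays, but the change of 0.51 ± 0.15 had an adjusted p of 0.109. GLIP (8801.92) and ROS (8268.25) stood beside CON, and the 6 steps below LTCR in the order of groups did not pass the test.

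**Figure D2:**
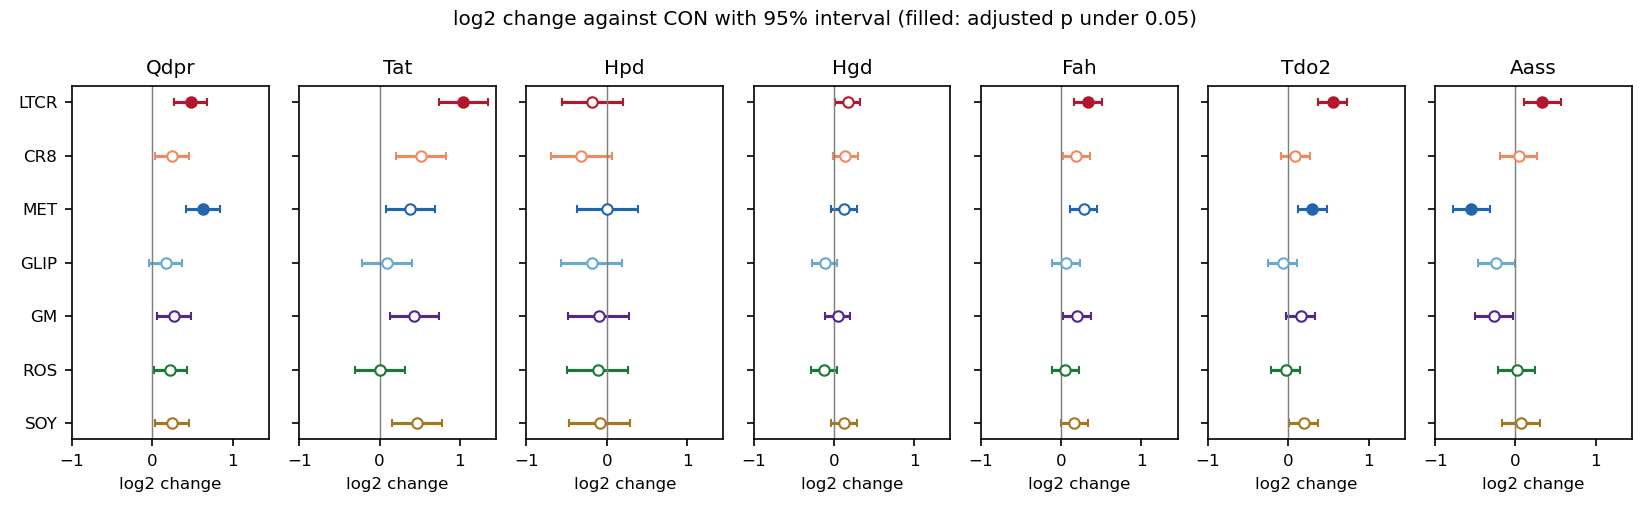
Change of each gene against CON on the log2(intensity + 27) scale (horizontal axes) with its 95% interval, for the 7 treated groups (rows); filled points passed the adjusted threshold. The filled points are 5 in the LTCR row and 3 in the MET row, of which Aass lies below 0.

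Hpd, the dioxygenase after Tat, was not called in any of the 28 pairs of groups. Its group means ran between 533 in CR8 and 673.25 in CON, with SDs of 60.84 to 218.2. In LTCR livers its intensities were 929.7, 473.5, 524.1 and 488.4, against 733, 866.6, 508 and 585.4 in CON livers. The groups overlapped, and the change was -0.18 with a 95% interval of -0.56 to 0.20. It ran from -0.40 without LTCR 1, the array at 929.7, to -0.051 without CON 2, and passed in none of the 8 fits without a single array.

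Hgd, which opens the ring of homogentisate, showed small differences. LTCR arrays read 6820.4, 6499.8, 6398.3 and 6967.6 and CON arrays 5857.1, 5864.8, 6088 and 5874.8. The LTCR arrays lay above the CON arrays without overlap, while the change of 0.17 ± 0.08 had an adjusted p of 0.125. LTCR was called above GLIP (0.29 ± 0.08, adjusted p = 0.0096) and above ROS (0.30 ± 0.08, adjusted p = 0.00851), the lowest groups for Hgd at 5465.23 and 5434.45.

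Fah, the last enzyme of the tyrosine route, read 17104.4, 14957.1, 14288.7 and 15646.9 in LTCR livers, against 11849.6, 12707.2, 12131.9 and 12220.6 in CON livers. The arrays did not overlap, and the change was 0.34 ± 0.08, or 1.27-fold, with an adjusted p of 0.0044 (0.17 and not called with quantile normalization). In MET livers Fah was 16538.5, 13369.1, 14991.4 and 14642.3, also all above CON, but its change of 0.28 ± 0.08 missed the threshold at an adjusted p of 0.054. LTCR was also above GLIP and ROS, at adjusted p of 0.0204 and 0.0195.

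Tdo2, which starts tryptophan breakdown, was read by a brighter probe set, which represents the gene here, and by a dimmer one. On the brighter probe set the intensities were 34607.3, 30821.6, 30466 and 33521.8 in LTCR livers, against 21743.5, 23961.1, 22411.3 and 20111.6 in CON livers. No LTCR array overlapped a CON array, and the change was 0.55 ± 0.09, or 1.47-fold, with an adjusted p of 5.03e-05. In MET livers the values were 22504.2, 25760.6, 32816.3 and 28471.5, which overlap CON, and the change of 0.30 ± 0.09 passed narrowly at an adjusted p of 0.0476.

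The MET call for Tdo2 was lost in 6 of the 8 fits without a single array of either group, where the adjusted p reached 0.19, and without the muscle-transcript arrays, where the change was 0.31 ± 0.10 (adjusted p = 0.124). With quantile normalization the MET change was 0.15 (adjusted p = 0.285), and with no filter on dim probe sets the adjusted p was 0.101. LTCR was above every group but MET for this probe set (LTCR minus MET 0.25 ± 0.09, adjusted p = 0.0641). The other 6 groups ran from 25189.5 (SOY) down to 21048.03 (GLIP), with MET, next to LTCR in the order, called above GLIP, ROS and CON.

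The dimmer Tdo2 probe set gave another picture. It read 2954.5, 2379.9, 3669.7 and 2641.9 in LTCR livers, against 2748.5, 2966.3, 3003.7 and 2751.4 in CON livers, so the CON arrays lay within the LTCR range. Its LTCR change was 0.0043 ± 0.13 with a 95% interval of -0.26 to 0.27, which does not reach the 0.55 of the brighter one. Over the 32 arrays both probe sets correlated with r = 0.0784 (permutation p = 0.667) and rho = 0.181 (permutation p = 0.317). The log2 ratio of the brighter to the dimmer averaged 3.48 ± 0.30 in LTCR, 3.43 ± 0.31 in MET and 2.93 ± 0.07 in CON (SD, n = 4). For LTCR and for MET against CON the exact permutation p was 0.0286, the smallest that 4 arrays against 4 allow, and 0.1 after adjustment over 7 groups. The Tdo2 calls above, and the Tdo2 correlations below, are those of the brighter probe set. Which of the probe sets reads the Tdo2 transcript better was not tested. The only pair of groups called on the dimmer one was MET below SOY (-0.44 ± 0.13, adjusted p = 0.0494).

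**Figure D3:**
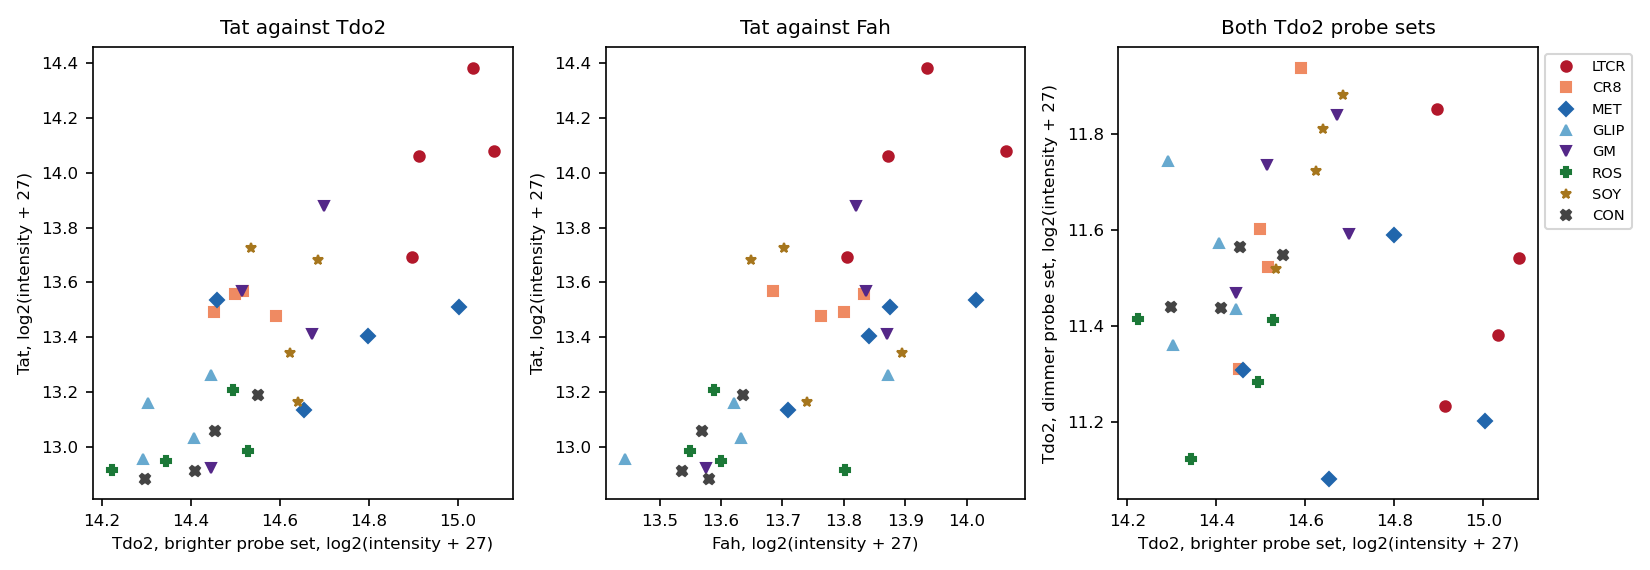
Values of single arrays on the log2(intensity + 27) scale: Tat against the brighter Tdo2 probe set (left), Tat against Fah (middle) and the dimmer against the brighter Tdo2 probe set (right); symbols mark the 8 groups. The 3 highest Tat values are LTCR arrays, while LTCR 3 lies among arrays of other groups for Tat and Fah, and both Tdo2 probe sets together show no slope (r = 0.0784).

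Tat and Tdo2 were the genes called in both LTCR comparisons, so the 250 bases before the start site in the RefSeq table (GRCm38.p6) are given for each, 5′ to 3′ on the gene's strand, with motif matches in capitals. For Tat this is chr8:109990186-109990435 on the plus strand, which lies inside the annotated span of the gene because that span also holds a start farther upstream. For Tdo2 it is chr3:81975729-81975978 on the minus strand, just outside the gene.
Tat: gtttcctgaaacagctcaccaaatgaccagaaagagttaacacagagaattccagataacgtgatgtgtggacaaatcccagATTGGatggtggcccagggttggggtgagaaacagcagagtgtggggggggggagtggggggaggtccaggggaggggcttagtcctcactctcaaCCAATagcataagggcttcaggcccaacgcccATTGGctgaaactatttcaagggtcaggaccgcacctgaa
Tdo2: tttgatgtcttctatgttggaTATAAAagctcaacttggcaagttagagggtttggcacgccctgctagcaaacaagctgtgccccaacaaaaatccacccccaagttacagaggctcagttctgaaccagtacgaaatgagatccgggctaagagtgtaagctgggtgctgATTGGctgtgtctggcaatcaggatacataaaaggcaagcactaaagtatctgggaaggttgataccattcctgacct
The capitals mark CCAAT boxes (CCAAT, or ATTGG on the other strand) and, in Tdo2, the TATA box letters TATAAA. Tat holds 3 CCAAT matches and Tdo2 a single one, 74 to 78 bases before its start, while the TATAAA match of Tdo2 is 224 to 229 bases before it. Of the 7 genes 5 had a CCAAT match in this window, against 33.8% of 32851 promoters in the table, and 2 (Tdo2 and Hgd) had TATAAA or TTTATA, against 12.4%. The core letters of glucocorticoid receptor sites, AGAACA or TGTTCT, were in 0 of the 7 windows and in 16.1% of all promoters. Those of cyclic AMP response elements, TGACG or CGTCA, were in 1, that of Aass, and in 17.8% of all promoters. A match is only a run of letters and its absence concerns only this window.

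Aass, the bifunctional enzyme at the head of lysine breakdown, was the only one of the 7 that fell in any comparison. Its intensities were 4961, 4472, 4143.8 and 5773.4 in MET livers, against 6790.4, 6894.4, 7844.7 and 6703.1 in CON livers. Every MET array was below every CON array, and the change was -0.55 ± 0.11, or 0.683-fold, with an adjusted p of 0.00692. Without the muscle-transcript arrays the change was -0.50 ± 0.13 with an adjusted p of 0.0527.

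In LTCR livers Aass read 7442.8, 9870, 8760 and 9665, against the same CON arrays, whose highest value of 7844.7 exceeds the lowest LTCR array. The rise of 0.33 ± 0.11 had an adjusted p of 0.0367 and was lost in 6 of the 8 fits without a single array, where the adjusted p reached 0.118, and with no filter (adjusted p = 0.0586). Between LTCR and MET the difference was 0.88 ± 0.11, or 7442.8 to 9870 in LTCR against 4143.8 to 5773.4 in MET (adjusted p = 6.93e-06). MET was below CR8, ROS and SOY too, at adjusted p of 0.00453, 0.00465 and 0.0029. GLIP (5998.98) and GM (5908.1) lay between MET (4837.55) and CON (7058.15), and neither was called against CON.

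The short restriction called none of the 7 genes. In CR8 against CON, 0 of 7 passed, against 0.544% of all probe sets tested, and 3 of 7 had an unadjusted p under 0.05, against 11.6%. The arrays did not overlap for 4 of the 7, Tat, Qdpr, Hgd and Fah, all higher in CR8, against 7.2% of all probe sets, or 3.56% counting only those higher in CR8. Of the 4 CR8 arrays 2 are among those with muscle transcripts, and the count was 0 also without these. In a fit of the CR8 and CON arrays alone Tat passed, at an adjusted p of 0.0323.

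Between the restrictions, 2 of the 7 genes were higher in LTCR than in CR8, against 4.65% of all probe sets called higher and 12% called in either direction. Tat was 13224.4 to 21346.8 in LTCR and 11382.4 to 12126.7 in CR8, a difference of 0.53 ± 0.15 with an adjusted p of 0.0204. Tdo2 was 30466 to 34607.3 in LTCR and 22365.9 to 24637.1 in CR8, a difference of 0.47 ± 0.09 with an adjusted p of 0.000834. All 7 differences were above 0, with a median of 0.23, beside 0.011 over all probe sets. The Tat call was lost without the muscle-transcript arrays, where the difference was as large and its error greater (0.53 ± 0.19, adjusted p = 0.101), without LTCR 4 (0.0923), without CR8 2 (0.0531) and with quantile normalization (0.41, adjusted p = 0.0515).

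Metformin gave 3 calls among the 7, against 4.17% of all probe sets tested: Qdpr and Tdo2 rose (1.83% of all probe sets rose) and Aass fell (2.34% fell) in MET livers relative to CON. LTCR and MET were set against the same CON arrays. Tat averaged 10808.2 ± 1312 in MET and 8250.12 ± 820 in CON (SD, n = 4), a change of 0.39 ± 0.15 with an adjusted p of 0.155. The hepatocyte marker sum was 169709.8 to 177906.8 in MET and 144925.8 to 162214.9 in CON, with 2 of the 8 markers higher and 1 lower. Its part in the calls was not tested. Without the muscle-transcript arrays, or in a fit of these groups alone, only Qdpr passed.

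Glipizide called 0 of the 7 (background 0.136%), with 1 of 7 at an unadjusted p under 0.05 against 9.37% of all probe sets, which was Aass (-0.24 ± 0.11, adjusted p = 0.497). The combination also called 0 of 7 against CON (background 1.55%), with 4 of 7 at an unadjusted p under 0.05 against 17.7%. With arrays scaled to equal medians, which raised the median of all probe sets in GM to 0.086, against -0.048 before, Tat (0.58, adjusted p = 0.0328) and Qdpr (0.42, adjusted p = 0.0371) passed in GM.

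The combination was also set against each drug alone. Qdpr was 7676.2, 7320.2, 7063.3 and 8540.6 in GM, against 8893.4 to 10748.2 in MET, without overlap. The difference of -0.36 ± 0.10 just missed the threshold at an adjusted p of 0.0558, and passed with quantile normalization (adjusted p = 0.0299) and with a stricter filter (adjusted p = 0.0437). Aass was 4771.1 to 7167.5 in GM and 4143.8 to 5773.4 in MET, a difference of 0.28 ± 0.11 with an adjusted p of 0.177. GM against MET thus called 0 of 7 (background 2.62%), and so did GM against GLIP (background 0%), with 2 genes (against 17.8% of all probe sets) and 3 genes (against 9.17%) at an unadjusted p under 0.05.

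Whether the combination differs from the sum of the single drugs was tested by the interaction, GM minus MET minus GLIP plus CON, which called 0 of 7 (background 0.0408%). For Qdpr the interaction was -0.52 ± 0.15 (unadjusted p = 0.00122, adjusted p = 0.163), and for Aass it was 0.52 ± 0.16 (unadjusted p = 0.00287, adjusted p = 0.252). These 2 of 7 were under an unadjusted p of 0.05, against 8.88% of all probe sets.

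Rosiglitazone called 0 of 7 (background 0.136%). The 7 changes ran from -0.13 for Hgd to 0.23 for Qdpr, and Qdpr alone had an unadjusted p under 0.05, against 8.41% of all probe sets. The soy extract also called 0 of 7, as it did 0% of all probe sets tested. In SOY livers Tat, Tdo2 and Qdpr had unadjusted p under 0.05, against 8.17% of all probe sets. Tat was 13111.9, 13514.8, 9142.1 and 10366.5 in SOY, against 7533 to 9301 in CON, a change of 0.47 ± 0.15 with an adjusted p of 0.391. The hepatocyte marker sum lay above every CON array in SOY (170247.5 to 176280.6) and in GM (164478.8 to 188228.3), as in LTCR and MET. It overlapped CON in CR8, GLIP and ROS, and its part in the changes was not tested.

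Across the 32 arrays the 7 genes varied together in part. Of the 21 pairs, 19 had a positive Pearson r, and 10 passed a permutation test with 100000 resamples adjusted over the pairs. Tat and Tdo2 gave r = 0.777 and rho = 0.75 (adjusted permutation p of 0.000158 and 0.000263), and r = 0.677 without the 2 arrays farthest from the Tat median. Tat with Fah gave r = 0.709 and rho = 0.692, Qdpr with Fah r = 0.673 and rho = 0.701, and Tat with Hgd r = 0.67 and rho = 0.677, each at an adjusted p of 0.000158 or 0.000263. Of the 10, Qdpr with Hgd was the weakest (r = 0.402, adjusted p = 0.0491) and did not pass by rank (rho = 0.391, adjusted p = 0.0588). No pair with Aass or Hpd passed.

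The named relations were weaker once group differences were taken out. For deviations from the group means, given as a description, r was 0.381 for Tat with Tdo2, 0.398 for Tat with Fah, 0.389 for Tat with Hgd and 0.374 for Qdpr with Fah. Of the other pairs that had passed, Hgd with Fah gave 0.447 and Tat with Qdpr 0.359. Tdo2 gave only 0.207 with Hgd, 0.151 with Qdpr and 0.0867 with Fah, and Qdpr with Hgd gave 0.154. Of the 19 positive pairs 16 stayed positive. Within groups Tat, Tdo2 and Hgd each turned negative with Aass, while Aass with Qdpr turned positive, at r = -0.0884 over all arrays and 0.39 within groups. Without the LTCR arrays Tat with Tdo2 gave r = 0.58. In that setting Aass was negative with each of the other genes, from -0.0793 with Hpd to -0.357 with Qdpr. All arrays share the deposited scaling, and arrays of a group share a treatment.

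**Figure D4:**
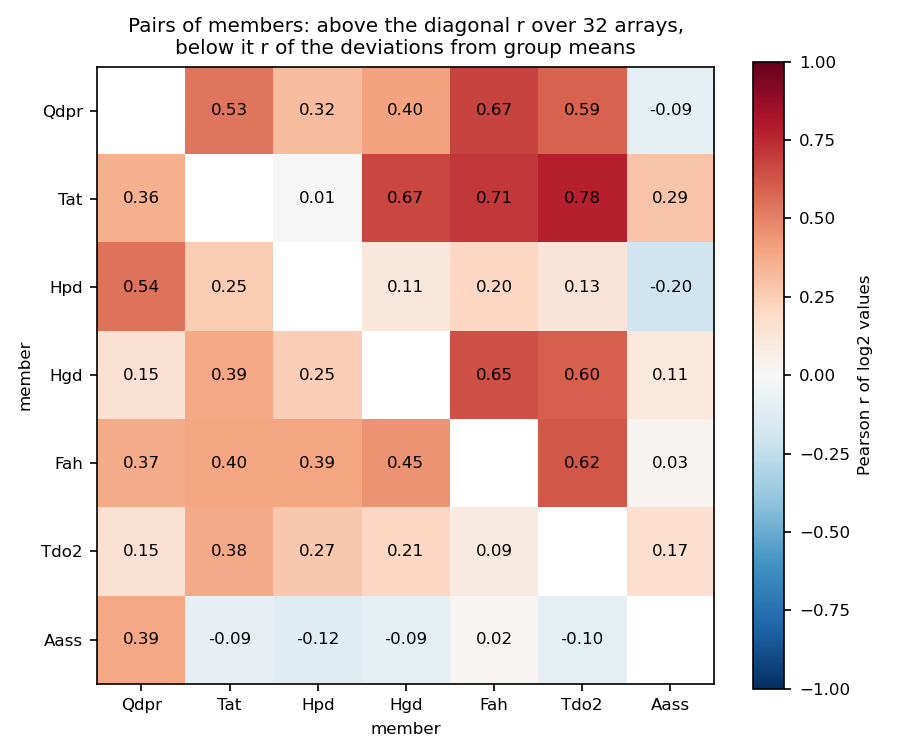
Pearson r of log2 values for each pair of the 7 genes over 32 arrays (above the diagonal) and of the deviations from group means (below it); colour runs from -1 to 1. Above the diagonal, pairs among Tat, Tdo2, Fah, Hgd and Qdpr run from 0.402 to 0.78, while the Aass column runs from -0.198 to 0.289.

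Other genes of the same routes were read from lists, beside 7.53% of all probe sets tested that rose and 11.8% that fell in LTCR relative to CON. For phenylalanine and tyrosine, 7 of the 9 genes on the array were tested, and 2 rose and 1 fell in LTCR livers relative to CON. Pcbd1, the dehydratase that acts just before Qdpr in cofactor recycling, fell: it was 3986.3 to 4526.3 in LTCR and 5059.4 to 6210.3 in CON (-0.40 ± 0.06, adjusted p = 5.93e-05), opposite in sign to Qdpr. Spr, the last enzyme of tetrahydrobiopterin synthesis, rose by 0.51 ± 0.15 (adjusted p = 0.0174), and Got2, an aminotransferase that also accepts aromatic amino acids, by 0.36 ± 0.08 (adjusted p = 0.0028). The Spr call was lost in 4 of the 8 fits without a single array, where the adjusted p reached 0.0759, and in a fit of these groups alone (adjusted p = 0.0622). Pcbd1 was also lower in LTCR than in CR8 (-0.37 ± 0.06, adjusted p = 0.000354).

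Gch1, which catalyses the first step of tetrahydrobiopterin synthesis, was called in 3 comparisons. Its intensities were 1504.3, 1442.8, 1520.7 and 1777.8 in MET livers, against 1362.7, 1179.5, 1338.8 and 1203.9 in CON livers, without overlap. The change was 0.29 ± 0.08 (adjusted p = 0.0464), and the call was lost in 7 of the 8 fits without a single array (adjusted p up to 0.165), without the muscle-transcript arrays (0.31 ± 0.10, adjusted p = 0.0955), in a fit of these groups alone (adjusted p = 0.195) and with no filter (adjusted p = 0.0662). Gch1 was lower in GM than in MET, at 1158.6 to 1284.3 against 1442.8 to 1777.8 (-0.34 ± 0.08, adjusted p = 0.0241), where Qdpr was at -0.36. This call was lost in 3 of the 8 fits without a single array, in a fit of these groups alone (adjusted p = 0.187) and with equal medians (adjusted p = 0.118). It was higher in LTCR than in CR8 (0.27 ± 0.08, adjusted p = 0.0302), as was Got2 (0.27 ± 0.08, adjusted p = 0.0373), and both calls were lost without the muscle-transcript arrays, where the differences were 0.28 ± 0.11 and 0.32 ± 0.10 (adjusted p of 0.127 and 0.0659). They were also lost in fits of these groups alone (adjusted p of 0.104 and 0.0916) and each in 5 of the 8 fits without a single array.

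Of the tryptophan route, 4 of the 5 genes on the array were tested. Kyat3, a kynurenine aminotransferase, rose in LTCR relative to CON (0.58 ± 0.17, adjusted p = 0.0121, or 0.0566 without LTCR 4). In MET and between LTCR and CR8, 0 of the 4 was called, against 4.17% and 12% of all probe sets tested. Of the lysine route, 6 of 7 were tested, and 2 rose in LTCR. Aldh7a1, which oxidises the aldehyde made by Aass, was 12562.4 to 14633.8 in LTCR and 9796 to 11537.3 in CON (0.38 ± 0.08, adjusted p = 0.000809, or 0.24 and still called with quantile normalization). Gcdh, the glutaryl-CoA dehydrogenase on which lysine and tryptophan breakdown converge, was 8983.7 to 9919 in LTCR and 6237.5 to 7616.2 in CON (0.40 ± 0.09, adjusted p = 0.00197). Both were also higher in LTCR than in CR8 (Aldh7a1 0.24 ± 0.08, adjusted p = 0.0437; Gcdh 0.37 ± 0.09, adjusted p = 0.00791), and the Aldh7a1 call was lost without the muscle-transcript arrays (0.19 ± 0.10, adjusted p = 0.278), in 6 of the 8 fits without a single array and with quantile normalization (0.17, adjusted p = 0.189).

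In MET livers, where Aass fell, 0 of the 6 lysine route genes was called, against 4.17% of all probe sets tested. Aldh7a1 had a change of 0.10 ± 0.08 and Gcdh of 0.076 ± 0.09. Aadat, the aminotransferase for the aminoadipate that lysine breakdown yields and for kynurenine, was 376.5, 488.7, 426.8 and 464.1 in MET and 538.8, 548.3, 708.2 and 581.9 in CON. These did not overlap, and the change of -0.41 ± 0.12 had an adjusted p of 0.0522.

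**Figure D5:**
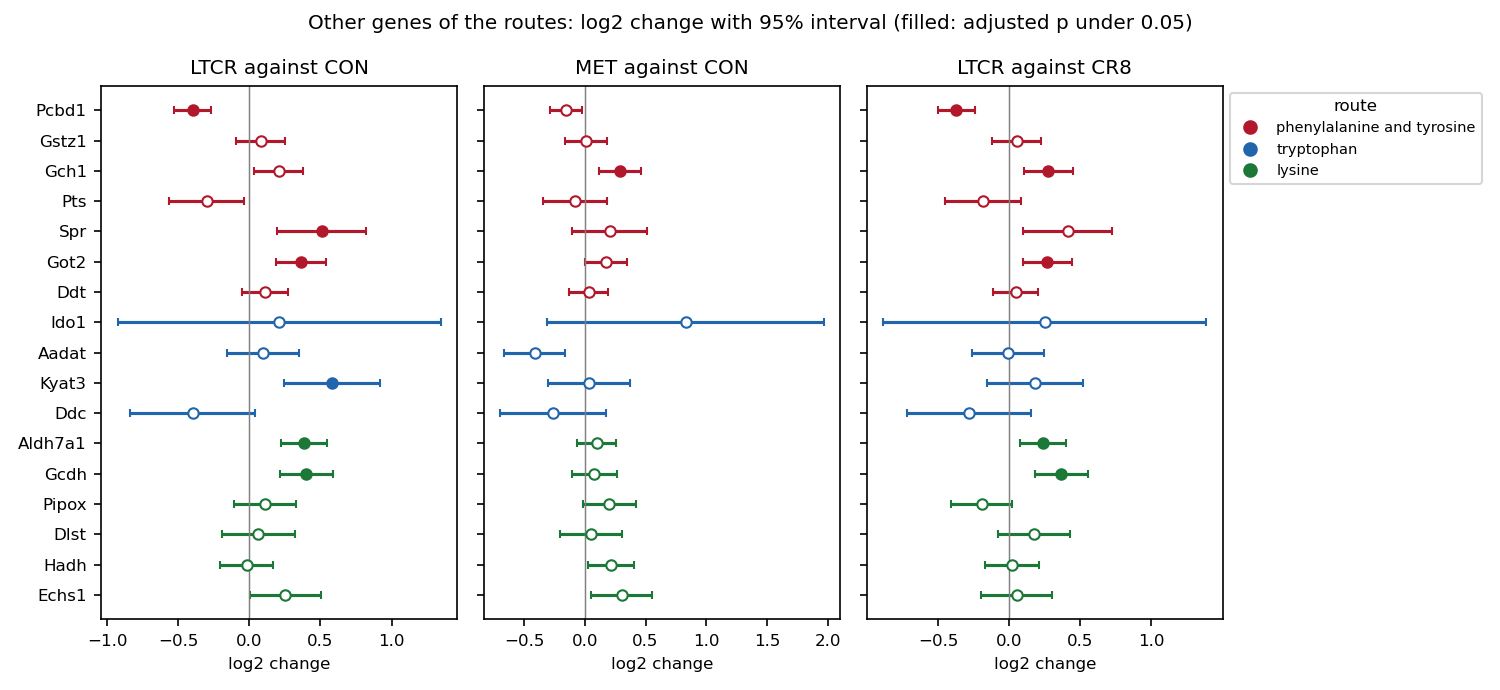
Change of the other tested genes of the phenylalanine and tyrosine, tryptophan and lysine routes on the log2(intensity + 27) scale with 95% intervals, in LTCR against CON, MET against CON and LTCR against CR8; filled points passed the adjusted threshold. In LTCR against CON 5 filled points lie above 0 and Pcbd1 lies below, and in MET against CON only Gch1 is filled.

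The genes whose pattern was most like that of each of the 7 were ranked by Pearson r over the 32 arrays among 5538 genes, as a description without a test. For Tat these were Aldh7a1 (r = 0.792), Lpin1 (0.756), a phosphatidate phosphatase, and St3gal5 (0.744), a sialyltransferase. For Tdo2 they were Slc38a4 (0.887), an amino acid transporter, Cps1 (0.882), the entry enzyme of the urea cycle, and Aldh7a1 (0.859). For Aass they were Aadat (0.765), Dld (0.716), the dihydrolipoamide dehydrogenase, and Cyp4a10 (0.68), a fatty acid hydroxylase.

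For Qdpr the most alike genes were Pcyt2 (0.758), of phosphatidylethanolamine synthesis, Fads1 (0.754), a fatty acid desaturase, and Mrps24 (0.728), of the mitochondrial ribosome. For Fah they were Slc37a4 (0.79), the glucose-6-phosphate transporter, Cyp2c38 (0.783) and Pemt (0.777), a methyltransferase that makes phosphatidylcholine. For Hgd they were H2-K2 (0.683), Smarcd1 (0.677) and Syngr2 (0.668), and for Hpd they were Flg (0.634), Ap1s1 (0.617) and Met (0.606). The most opposed genes were Ttc30b for Tat (-0.815), Ik for Tdo2 (-0.846), Tmsb4x for Aass (-0.724), Eif4ebp1 for Qdpr (-0.77), Wdr20 for Hpd (-0.648), Blvra for Hgd (-0.693) and Rasa3 for Fah (-0.837). Within groups the likeness of Tdo2 to Cps1 was r = 0.818 and that of Tat to Lpin1 was r = 0.445. For Tat with Aldh7a1 it was 0.35, for Qdpr with Pcyt2 0.335 and for Aass with Cyp4a10 0.172, while for Hpd with Flg it was 0.663. The probe sets of Cyp4a10, Cyp2c38 and H2-K2 can take signal from close relatives of these genes. No probe sequences were at hand, so shared signal could not be checked for others, such as Aldh7a1, St3gal5 and the brighter Tdo2 probe set.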

How the data were processed

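Per the labels, liver RNA was hybridised to Affymetrix MG-U74Av2 arrays. The deposited values are a linear intensity for each probe set on each array (0.1 to 47323.7). Their scaling was read from the values: the mean of each array without the top and bottom 2% lay between 500.4 and 500.5. The software, background correction, detection calls and scan batches were not stated in any source used here; 4 arrays a group limit the precision. Of 12488 probe sets 66 controls were left out, 10833 had 1 gene symbol, 396 several and 1193 none.

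From the deposited intensities log2(intensity + 27) was computed, a scale that understates changes of dim genes. Probe sets were kept where their mean exceeded that of the 40th percentile, 94.2 (7357 probe sets). They were fitted with limma 3.58.1 in R 4.3.3 (lmFit, eBayes with an intensity trend) in 1 model of the 8 groups (residual degrees of freedom 24, prior 4.59), with Benjamini-Hochberg adjustment over all probe sets within each comparison, at a threshold of 0.05. The script was tested on simulated data. Correlations used 100000 permutations (scipy 1.17.1), and the intervals have a confidence level of 95%. Where a gene had several probe sets, the brightest over the 32 arrays represented it.

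The 7 genes, the lists and the tests were chosen with earlier results of these data known. Text names the 7 genes with all their probe sets, the genes of the 3 routes past the threshold in any of the 10 comparisons, at most the 4 genes of smallest p per other list where 1 of the 7 was called, and the 3 most alike genes and the most opposed for each of the 7. Alternatives were 2 scalings, other added values and filters, smaller fits, the replicate number as a block and leaving out arrays. The limit set for muscle transcripts, 10 times the median array, left out 0 arrays. A limit of 2 times, which left out 5, and the Tdo2 probe set ratio were chosen after seeing the data. Replicate numbers did not pair the arrays: correlations of deviations between arrays of the same number ran from -0.232 to 0.244. Promoter sequences are from RefSeq (GRCm38.p6), matched by symbol for 7 of 7 genes.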

Additional observations from a re-analysis of the deposited data

Results flagged for a closer look

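Among 64 sets of 4 arrays (8 probe sets in 8 groups), 3 had an array whose gap to its nearest neighbour took up more of the group's range than Dixon's 95% critical value for 4 samples allows, and chance alone gives about 5% of such sets. For Hpd the LTCR 1 array read 929.7 beside 473.5 to 524.1 in the other LTCR arrays, a gap of 0.851 of the range. For Hgd the MET 4 array read 7530.4 beside 6033.7 to 6180.8 in the other MET arrays, a gap of 0.891. For Hgd the CON 3 array read 6088 beside 5857.1 to 5874.8 in the other CON arrays, a gap of 0.922, and CON 3 is among the arrays with muscle transcripts.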

How the results depend on the processing

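Of 704 recomputed gene results over the alternatives other than single left-out arrays, 668 kept their direction and their side of the threshold, 13 lost it, 7 gained it and 16 changed sign; of 672 with 1 array left out, these were 622, 14, 4 and 32. With quantile normalization 3 of the 7 genes passed in LTCR against CON, 1 in LTCR against CR8 and 1 in GM against MET. GM against MET also gave 1 with a filter at the 60th percentile and 1 with the replicate number as a block, although arrays of the same number share only that number. The block left 2 genes in MET, Tdo2 being at an adjusted p of 0.0636, and changed no other count of the 7; of the route genes it lost Gch1 in MET and Got2 and Aldh7a1 in LTCR against CR8 (adjusted p of 0.0566, 0.0509 and 0.0547). In fits of the compared groups alone 1 gene passed in CR8 and 1 in MET, without the 5 muscle-transcript arrays 1 in MET and 1 in LTCR against CR8, and with equal medians 2 in GM. Leaving out 1 array in turn gave 4 to 5 genes in LTCR against CON, 2 to 3 in MET, 0 to 1 in GM, 1 to 3 in LTCR against CR8, 0 to 1 in GM against MET, 5 to 6 by the F test, and 0 in CR8, GLIP, ROS, SOY, GM against GLIP and the interaction. Tat, Tdo2, Qdpr and Fah in LTCR against CON, Qdpr and Aass in MET, and Tdo2 in LTCR against CR8 passed in all 8 such fits each. For pairs of genes 9 passed by rank, beside 10 by Pearson r. The dimmer Tdo2 probe set turned the sign to -0.20 in MET, 0.030 in GLIP, -0.092 in LTCR against CR8, 0.36 in GM against MET and 0.33 in the interaction. The other changes of sign were of results not past the threshold. With quantile normalization they were Hgd in GM (-0.039), in LTCR against CR8 (-0.012) and in the interaction (-0.000405), Tat in ROS (-0.027), and Cps1 in MET (-0.083) and in LTCR against CR8 (-0.005). With equal medians they were Hpd in GM (0.038) and SOY (0.027), Tat in ROS (-0.011) and in the interaction (0.0056), Aass in GM against GLIP (0.097), and Arg1 (0.022) and Asl (0.018) in MET. Without the muscle-transcript arrays they were Hpd in MET (-0.11) and Tat in ROS (-0.045). With 1 array left out, signs changed for Aass in CR8 (-0.011 to 0.093), ROS (-0.0075 to 0.068) and GM against GLIP (-0.13 to 0.068), Asl in MET (-0.13 to 0.0051), Fah in GLIP (-0.015 to 0.13) and ROS (-0.0013 to 0.083), Hgd in GM (-0.018 to 0.10), LTCR against CR8 (-0.00080 to 0.052) and the interaction (-0.025 to 0.11), Hpd in GM (-0.22 to 0.025), LTCR against CR8 (-0.082 to 0.23), MET (-0.11 to 0.14), ROS (-0.23 to 0.053), SOY (-0.20 to 0.042) and the interaction (-0.049 to 0.20), Tat in GM against MET (-0.095 to 0.22), ROS (-0.061 to 0.063) and the interaction (-0.19 to 0.13), and Tdo2 in ROS (-0.074 to 0.027) and the interaction (-0.17 to 0.011). The causes were not tested. No detection calls were at hand, so signal over background is unknown, and the 4 arrays a group limit what the test can call.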

Other observations

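Genes around the 7 were read from 3 further lists, against the same background of 7.53% of all probe sets higher and 11.8% lower in LTCR than in CON. Of 29 other genes of amino acid breakdown, 5 were higher and 1 was lower in LTCR livers, with a median change of 0.15. Prodh2 (0.48 ± 0.09, adjusted p = 0.000345), which degrades hydroxyproline, and Gnmt (0.34 ± 0.09, adjusted p = 0.00973), which methylates glycine, rose. With quantile normalization the Gnmt change was 0.20 and was not called (adjusted p = 0.109). Mmut, the methylmalonyl-CoA mutase, fell in LTCR relative to CON (-0.41 ± 0.10, adjusted p = 0.00372) and relative to CR8 (-0.44 ± 0.10, adjusted p = 0.00397). Of 6 urea cycle genes 2 rose in LTCR relative to CON, Cps1 (0.33 ± 0.09, adjusted p = 0.00565) and the argininosuccinate lyase Asl (0.45 ± 0.12, adjusted p = 0.00808). With quantile normalization the Cps1 change was 0.064 and was not called (adjusted p = 0.501). In MET livers 1 of the 29 was called, Dld, which fell (-0.34 ± 0.09, adjusted p = 0.0271), and 0 of the 6. Of all probe sets tested 4.17% were called in MET, and 2.34% were lower. The Dld call was lost without the muscle-transcript arrays (-0.29 ± 0.10, adjusted p = 0.132), with equal medians (-0.26, adjusted p = 0.133), in a fit of these groups alone (adjusted p = 0.163) and in 4 of the 8 fits without a single array.

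Of 25 further genes known to be induced by glucocorticoids, 9 were higher and 3 lower in LTCR than in CON, with a median change of 0.29. Between LTCR and CR8, 9 were higher and 3 lower in LTCR, with a median of 0.51. There 4.65% of all probe sets tested were higher and 12% were called in either direction. Fkbp5, a chaperone of steroid receptors, rose in LTCR relative to CON (1.18 ± 0.16, adjusted p = 6.14e-06), as did G6pc, the glucose-6-phosphatase (1.41 ± 0.26, adjusted p = 0.000271). Gadd45a, a stress gene of the same list, fell (adjusted p = 1.65e-10): it read 19.2 to 73 in LTCR and 377.1 to 737.9 in CON. The LTCR readings lie around the added value of 27, so the size of the log2 change depends on that value, and it ran from -4.13 to -2.39 over the alternatives. In MET livers 0 of the 25 passed (limma), against 4.17% of all probe sets tested, and Tat itself had an unadjusted p of 0.016. This list was drawn up with earlier results of these data known, so its counts are a description.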
